A study of Ovis aries with 2 samples.

Results

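The cells described here are 210 keratinocytes of Hu sheep lamb skin, among 14037 cells of single-cell RNA-seq, that carried UMIs (unique molecular identifiers, 1 per captured transcript) of several secreted factors together. A cell was a member if it had at least 3 of PTHLH, SFTPC, PTN, THBS2, BDNF and RASSF6 above 0 and at least 20 UMIs of KRT14 (LOC101118459) per 10000 UMIs of the cell. It also had fewer than 2 of DLK2, CDH13 and FGFBP1 above 0, at most 1 of LGR5, PPP2R2B and FIBIN above 0, and fewer than 20 UMIs of ACTG2 per 10000. The cells were thus chosen by their measured levels of these 14 genes, which are given below as a description, with no test. The cells had been labelled PTHLH, SFTPC-rich follicle keratinocytes. The SFTPC part of that label held for a minority, since SFTPC had a UMI in 53 of 144 members from straight wool lambs and in 13 of 66 from curly wool lambs. PTN had one in 134 of 144 and 64 of 66. Whether a cell came from a follicle was not recorded, because isolated hair follicles and whole skin were dissociated apart and mixed before loading.

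PTHLH encodes parathyroid hormone-related protein, a secreted peptide that acts through the receptor PTH1R. In skin it is known as a keratinocyte product that signals to dermal cells and restrains hair growth. BDNF is a neurotrophin that binds NTRK2 and NGFR, and follicle keratinocytes are a known source of neurotrophins for the nerve endings around the follicle. PTN is pleiotrophin, a heparin-binding growth factor read by PTPRZ1, ALK and the syndecans. THBS2 is a matricellular protein of the thrombospondin family, RASSF6 is a Ras-association domain protein linked to the Hippo pathway, and SFTPC is the precursor of surfactant protein C, best known from alveolar type 2 cells of the lung. KRT5 and KRT14 form the filaments of basal keratinocytes, and KRT17 is a keratin of the outer root sheath and of other appendage epithelium.

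Skin was taken from the body side of Hu sheep lambs at day 3, pooled separately for straight and for curly wool, and each pool gave 1 library. The libraries differed in wool type and in no stated treatment or genotype, and the lambs within a pool cannot be told apart. No spread between lambs was therefore measured, the wool types were compared without a test, and all intervals below are 95% intervals that cover counting error only. In all, 57956122 UMIs were read in 6452 straight cells, and 77634565 in 7585 curly cells. Members held 1564797 and 736179 of these UMIs. Their median depth was 9930.5 UMIs in straight and 10168 in curly, against 7793 and 6361 in the other KRT14-high cells, and a rule that asks for several sparse genes picks deep cells more readily. The 2 libraries shared 70 cell barcodes, and 3 members carried such a barcode.

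Members made up a larger share of the straight library. They were 144 of 6452 straight cells, or 2.23% (1.89 to 2.62%, exact Clopper-Pearson interval), and 66 of 7585 curly cells, or 0.870% (0.674 to 1.11%). Among KRT14-high cells the shares were 5.40% (4.58 to 6.33%) of 2665 and 1.94% (1.51 to 2.47%) of 3395. With each cell thinned to 3000 UMIs, which left out 1405 straight and 1912 curly cells of lower depth, the rule found 70 of 5047 straight cells (1.39%, 1.08 to 1.75%) and 42 of 5673 curly cells (0.740%, 0.534 to 0.999%). The interval of the straight library stayed above that of the curly library, with a narrower gap. The mixing of follicle and whole-skin suspensions also sets such shares, and its part was not tested.

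The count of rule genes graded into the cells just outside. Of the straight members, 70 had exactly 3 of the 6 genes, 45 had 4, 21 had 5 and 8 had 6. The curly members had 3, 4 and 5 of them in 41, 21 and 4 cells, and none had 6. Median depth ran from 8151 UMIs with 3 genes to 16370.5 with 6 in the straight library. Just outside, 147 straight and 173 curly cells met the rest of the rule with exactly 2 of the 6. KRT14 alone kept out 174 and 87 cells, and the highest of these lay at 19.98 and 19.45 UMIs per 10000 against 20.8 and 20.6 in the lowest members. The clause on DLK2, CDH13 and FGFBP1 alone kept out 118 and 77 cells, the clause on LGR5, PPP2R2B and FIBIN 12 and 8, and ACTG2 alone 0. Many members carried 1 gene of these clauses themselves. In 101 straight and 33 curly members 1 of DLK2, CDH13 and FGFBP1 was above 0, and in 48 and 17 members 1 of LGR5, PPP2R2B and FIBIN. Only 31 straight and 25 curly members had none of them.

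The secreted factors were unevenly spread over the members. PTN reached a median of 5.35 UMIs per 10000 in straight members, with a range of 0 to 42.4, and of 4.30 in curly members, with a range of 0 to 37.4. BDNF had a median of 1.43 in straight and 0.728 in curly members, with highest cells of 29.7 and 11.1. PTHLH had a median of 0.765 and 0.396, and its 5 highest cells held 27.5% of its UMIs in straight and 36.2% in curly members. The SFTPC median was 0 in both libraries, with highest cells of 14.9 and 12.6, and in the curly library 5 cells held 60% of its UMIs. BDNF and PTN met in 104 of 144 straight and 39 of 66 curly members, which made them the pair most often found together in both libraries. PTHLH and SFTPC, the genes of the label, met in 36 straight and 9 curly members.

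Summed over cells and divided by all UMIs of the set, PTHLH stood at 171.9 CPM (counts per 1000000 UMIs, with an exact Poisson interval of 152.0 to 193.7) in straight and 93.7 CPM (72.9 to 118.6) in curly members. The other KRT14-high cells had 18.9 and 6.61 CPM. PTN was at 577.7 and 512.1 CPM against 83.7 and 144.8, BDNF at 182.1 and 111.4 CPM against 34.5 and 20.2, and THBS2 at 116.9 and 73.4 CPM against 16.01 and 9.38. RASSF6 was at 84.4 and 69.3 CPM against 12.3 and 14.05, and SFTPC at 79.9 and 27.2 CPM against 11.5 and 5.05. These gaps follow from the choice of the cells. Free RNA was read from endothelial cells, taken as cells below the KRT14 limit with at least 3 of 7 endothelial markers. At 3000 UMIs a cell, PTHLH had a UMI in 31.6% of straight and 27.1% of curly members, in 4.08% and 1.597% of the other KRT14-high cells, and in 0 of 114 and 0 of 90 endothelial cells. SFTPC was likewise found in 0 endothelial cells at that depth, and in 18.0% and 6.78% of members. PTN had a UMI in 2.63% of straight and 10.0% of curly endothelial cells, against 67.7% and 76.3% of members. Median depths before thinning were 6182 and 4909 UMIs in the endothelial cells.

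**Figure D1:**
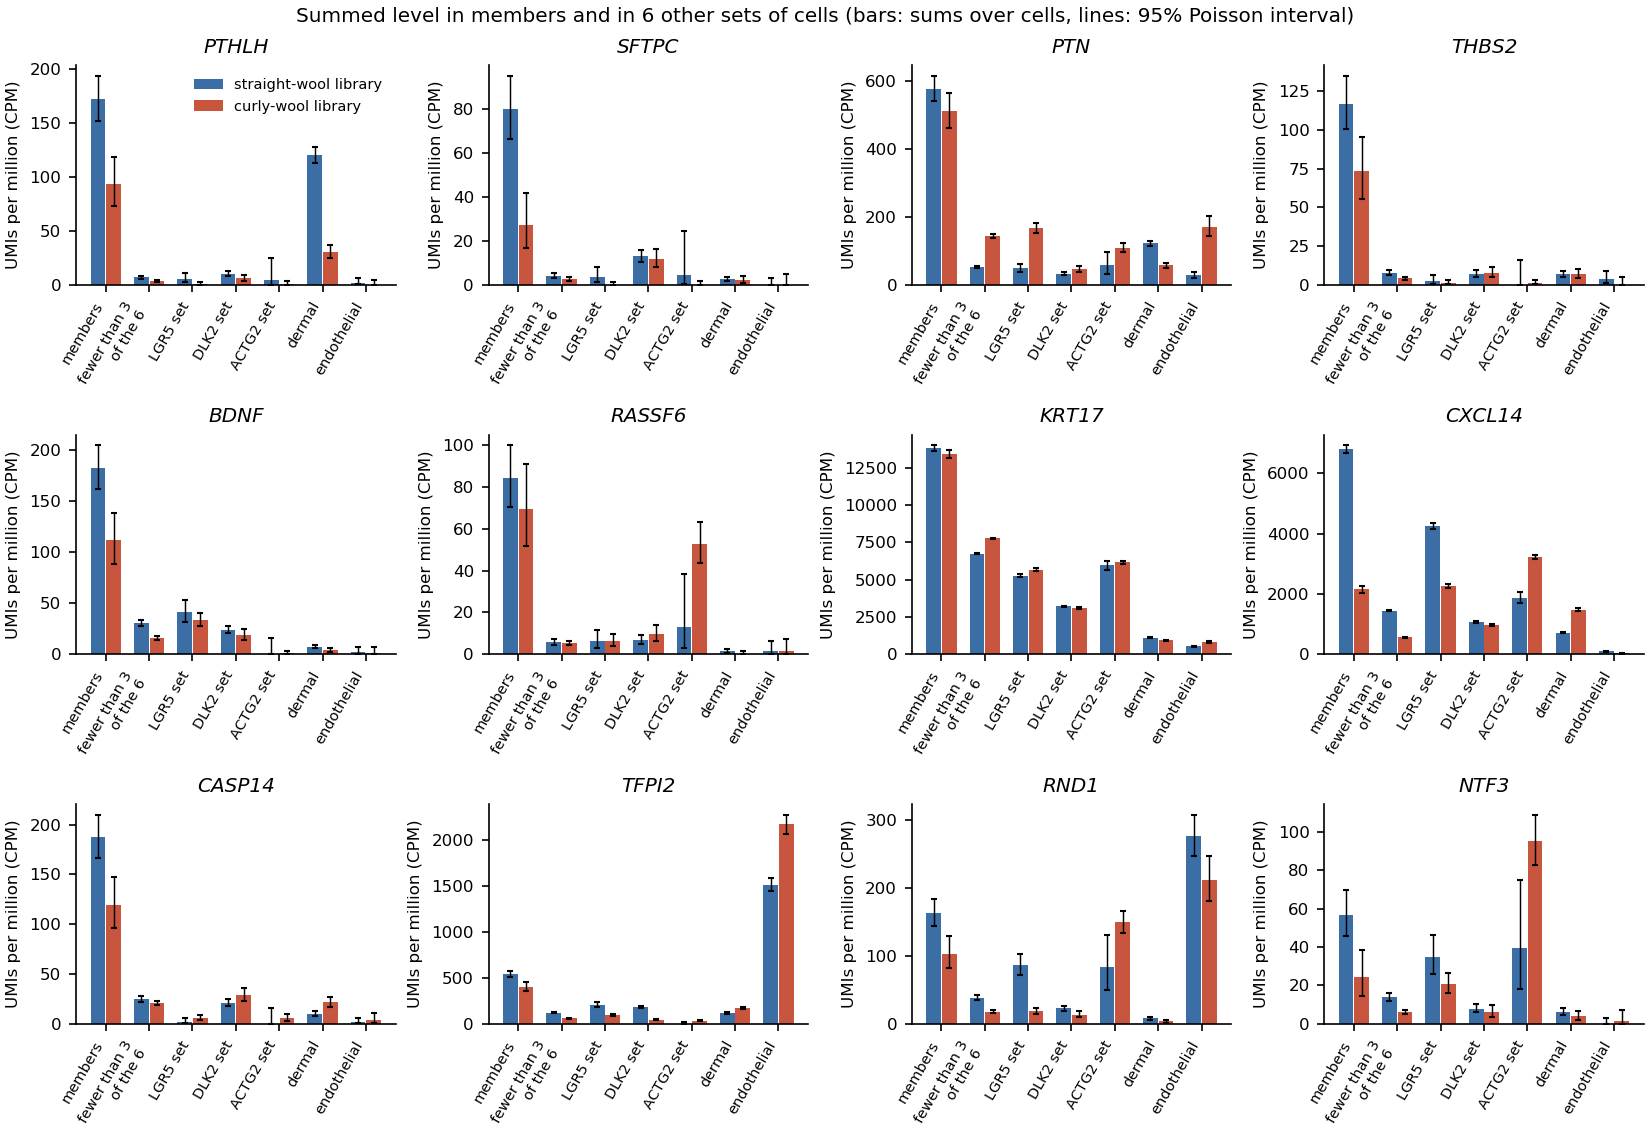
Level in CPM (y axis, linear, from 0) of the 6 rule genes, KRT17 and 5 genes outside the rule, in members and in 6 other sets of cells (x axis), for the straight (blue) and curly (red) library. Bars are sums of UMIs over the cells of a set and lines are 95% Poisson intervals, which cover counting error only. PTHLH was also found in dermal cells (119.9 CPM straight, 30.2 CPM curly), TFPI2 was highest in endothelial cells (1513 and 2172 CPM), and NTF3 and RND1 were also high in curly cells with ACTG2.

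Each rule gene was then read in cells picked without it, which is a measure that its own level did not choose. For each of the 6 genes, KRT14-high cells with at least 3 of the other 5 that also met the remaining clauses were set against the KRT14-high cells with fewer. The latter did not have to meet those clauses. The gene left out was higher in the picked cells for all 6 genes in both libraries. PTHLH stood at 152.9 CPM (132.3 to 175.8) in the 113 straight cells picked without it and at 13.5 CPM (11.98 to 15.2) in the others, a log2 ratio of 3.50 (3.23 to 3.77). The curly library gave 67.1 CPM (45.9 to 94.7) in 45 picked cells against 4.57 CPM (3.78 to 5.47), a log2 ratio of 3.88 (3.26 to 4.45).

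The lowest log2 ratio of the 6 was that of BDNF in both libraries, at 2.25 (2.01 to 2.49) in straight and 1.97 (1.44 to 2.46) in curly cells. SFTPC had a log2 ratio of 2.81 (2.44 to 3.17) in straight cells and of 2.23 (1.27 to 3.06) in curly cells, where it rested on 13 UMIs in 7 of 60 picked cells. The picked cells were deeper, with medians of 10573 to 12084.5 UMIs against 7519 to 7582 in straight and of 8068 to 10720 against 6253 to 6307 in curly. At 3000 UMIs a cell the lowest log2 ratio of the 6 was 1.43 (0.07 to 2.53) in straight and 0.79 in curly, where the interval of -4.55 to 3.36 covered 0 widely.

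**Figure D2:**
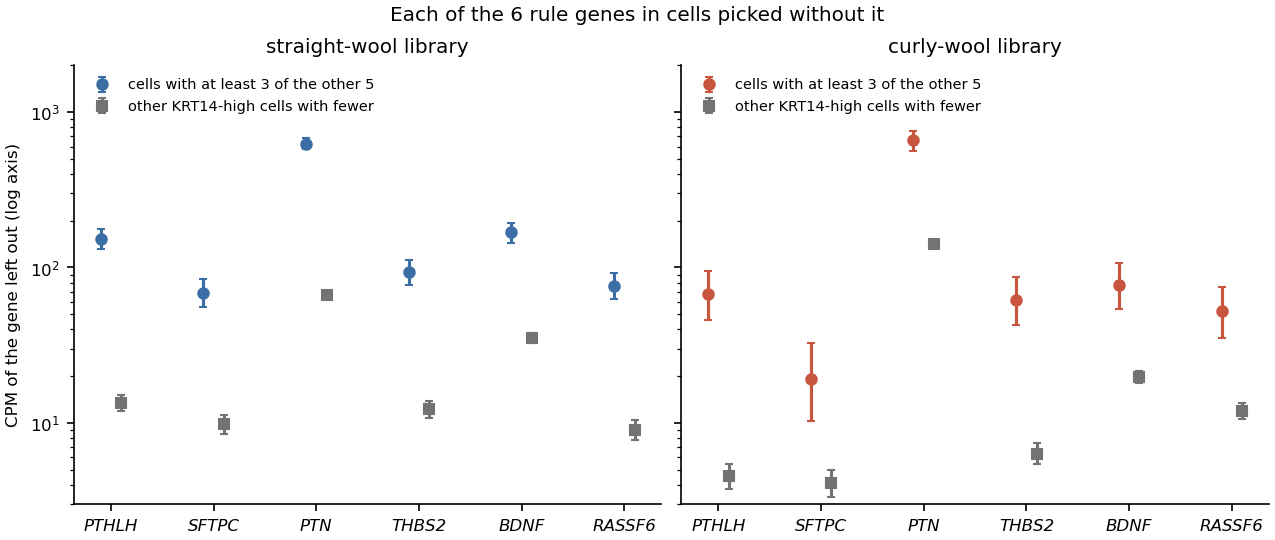
CPM (y axis, log scale) of each of the 6 rule genes (x axis) in KRT14-high cells with at least 3 of the other 5 (coloured circles) and in those with fewer (grey squares), for the straight (left) and curly (right) library, with 95% Poisson intervals. In each of the 12 pairs the picked cells lay above the others, from a log2 ratio of 1.97 for BDNF in curly to 3.88 for PTHLH in curly.

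Receptors that are specific to these factors had few UMIs in the members themselves. PTH1R had 3 UMIs in straight and 1 in curly members (1.92 and 1.36 CPM), and 49.8 and 55.2 CPM in dermal cells, taken as cells below the KRT14 limit with at least 3 of 7 dermal markers. The same dermal cells also held PTHLH, at 119.9 CPM in straight and 30.2 in curly. NTRK2, the receptor of BDNF, had 4 UMIs in straight and 0 in curly members, and PTPRZ1, a receptor of pleiotrophin, had 2 and 1. SDC1, a syndecan that many epithelial cells carry, was at 272.2 and 366.8 CPM in members against 248.3 and 375.2 in the other KRT14-high cells. NTF3, the neurotrophin next to BDNF in the same family, was measured in 46 straight and 10 curly members and stood at 56.9 CPM (45.7 to 70.0) and 24.5 CPM (14.5 to 38.6). The other KRT14-high cells had 15.4 and 15.7 CPM, so NTF3 passed 2-fold in the straight library and stayed at a log2 ratio of 0.64 (-0.13 to 1.32) in the curly one. MDK, the midkine paralog of PTN, was near the floor in members, with 3.83 and 6.79 CPM from 6 and 5 UMIs. SFTPB, another surfactant protein gene, had 0 UMIs in members of both libraries, and counts of 0 allow up to 1.92 and 4.08 CPM (3 counts over the set).

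KRT17 was given as a marker of these cells and was not used by the rule. Every member had KRT17 UMIs, with a lowest, median and highest cell of 2.93, 93.8 and 692.5 UMIs per 10000 in straight and of 13.6, 114.1 and 461.4 in curly. At 3000 UMIs a cell, KRT17 had a UMI in 98.5% of straight and 100% of curly members. The other KRT14-high cells had one in 93.0% and 94.1%, and endothelial cells in 70.2% and 72.2%. A KRT17 UMI alone therefore did not set the members apart. Summed, KRT17 came to 13825 CPM in straight members and to 13410 CPM in curly ones, against 5683 and 6779 CPM in the other KRT14-high cells. The log2 ratios were 1.28 (1.26 to 1.30) and 0.98 (0.95 to 1.01), so the curly value fell just short of 2-fold. KRT5 was modestly higher in members, with log2 ratios of 0.49 and 0.28. KRT15 (LOC101117682), a keratin of basal and bulge cells, was at 0.49 in straight and at 0.02 (-0.04 to 0.08) in curly. KRT14, KRT15 and KRT17 are closely related type I keratins and how reads shared between them were counted is not given in the sources used here, so their levels are uncertain.

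CXCL14, a chemokine of skin epithelium, was high in members and shifted between libraries. Its cells ran from 0 over a median of 56.2 to 336.4 UMIs per 10000 in straight, and from 0 over 16.6 to 155.9 in curly members. The sums were 6798 CPM in straight and 2144 CPM in curly members against 1874 and 1149 CPM in the other KRT14-high cells. The log2 ratio of members over the others was 1.86 (1.83 to 1.89) in straight and 0.90 (0.83 to 0.97) in curly. Cells of the LGR5 set, which have at least 2 of LGR5, PPP2R2B and FIBIN, had 4240 and 2260 CPM of CXCL14.

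**Figure D3:**
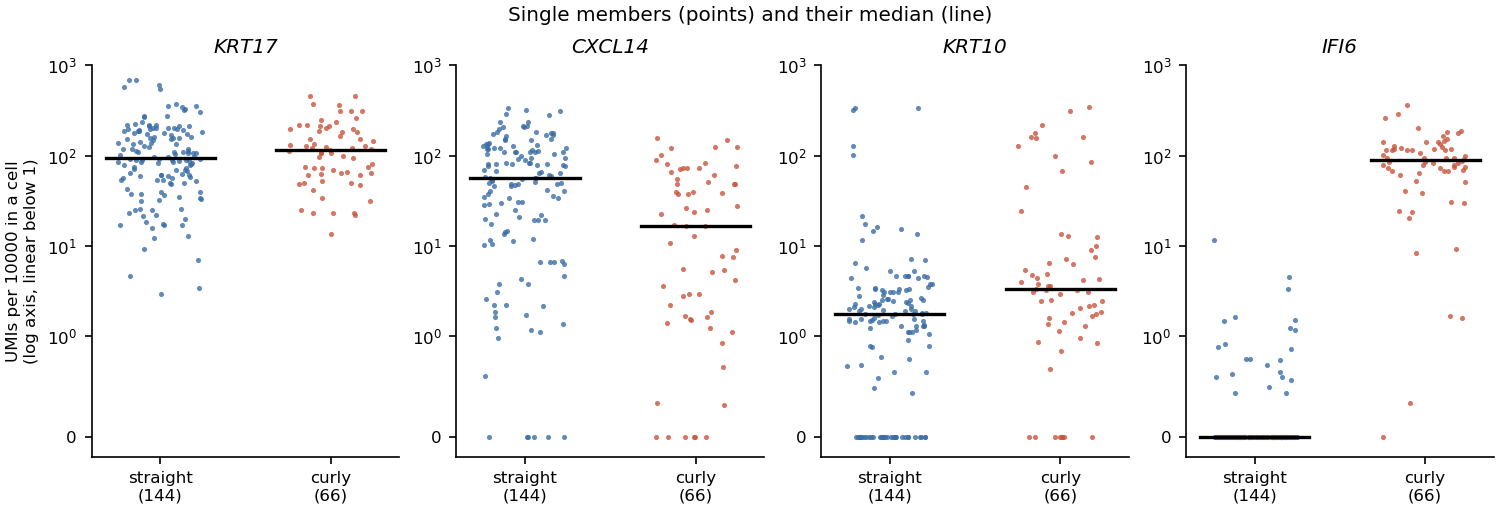
Level of KRT17, CXCL14, KRT10 and IFI6 in single members (points), in UMIs per 10000 of the cell (y axis, log scale, linear below 1), for 144 straight and 66 curly members (x axis), with the median as a line. KRT17 overlapped almost fully between libraries, KRT10 was high in a few cells, and IFI6 had a median of 0 in straight and 88.9 in curly members.

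Beyond the rule, a small set of genes was at least 2-fold higher in members than in the other KRT14-high cells of both libraries. Of 8950 genes with at least 100 UMIs in each library over members and the other KRT14-high cells, 47 (0.525%) were at least 2-fold higher and 138 (1.54%) at least 2-fold lower in both. The interval of the ratio lay above 0 in both libraries for 40 of the 47 and below it for 77 of the 138. The median log2 ratio over all 8950 genes was 0.06 in straight and -0.0044 in curly.

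CASP14, a caspase of cornifying keratinocytes, led the higher genes. It stood at 187.2 CPM (166.4 to 210.0) in straight and 119.5 CPM (95.9 to 147.3) in curly members, against 27.1 and 20.7 CPM in the other KRT14-high cells, which gave log2 ratios of 2.79 (2.58 to 2.99) and 2.53 (2.19 to 2.85). It was found in 54 of 144 and 31 of 66 members, and its 5 highest cells held 50.2% and 37.5% of its UMIs. TFPI2, a Kunitz-type protease inhibitor, was at 539.4 and 403.4 CPM against 178.2 and 70.9, with log2 ratios of 1.598 and 2.51. Its UMIs came from 56 straight and 23 curly members, so most members had none. TFPI2 was higher still in endothelial cells, at 1513 and 2172 CPM. RND1 was at 163.0 and 103.2 CPM against 44.2 and 29.7, with log2 ratios of 1.88 and 1.80, and endothelial cells held 276.6 and 212.1 CPM of it.

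CLDN8, a tight junction claudin, was at 104.2 and 81.5 CPM against 29.6 and 30.7. CGNL1, paracingulin of the junction plaque, was at 24.9 and 28.5 CPM against 9.11 and 5.12, and CDH11, a cadherin better known from mesenchyme, at 20.4 and 28.5 CPM against 7.77 and 7.10. ANKH, a transporter that exports pyrophosphate and ATP, was at 91.4 and 32.6 CPM against 19.8 and 12.1. HES6, a HES-family regulator, was at 20.4 and 17.7 CPM against 7.36 and 5.96, from 32 and 13 UMIs. MXRA7, CELF6, RAP2A and RASL11A, the latter a pair of Ras-family GTPases, had log2 ratios of 1.53 to 1.96 in straight and 1.55 to 1.94 in curly, each from 63 UMIs or fewer in the members of a library.

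**Figure D4:**
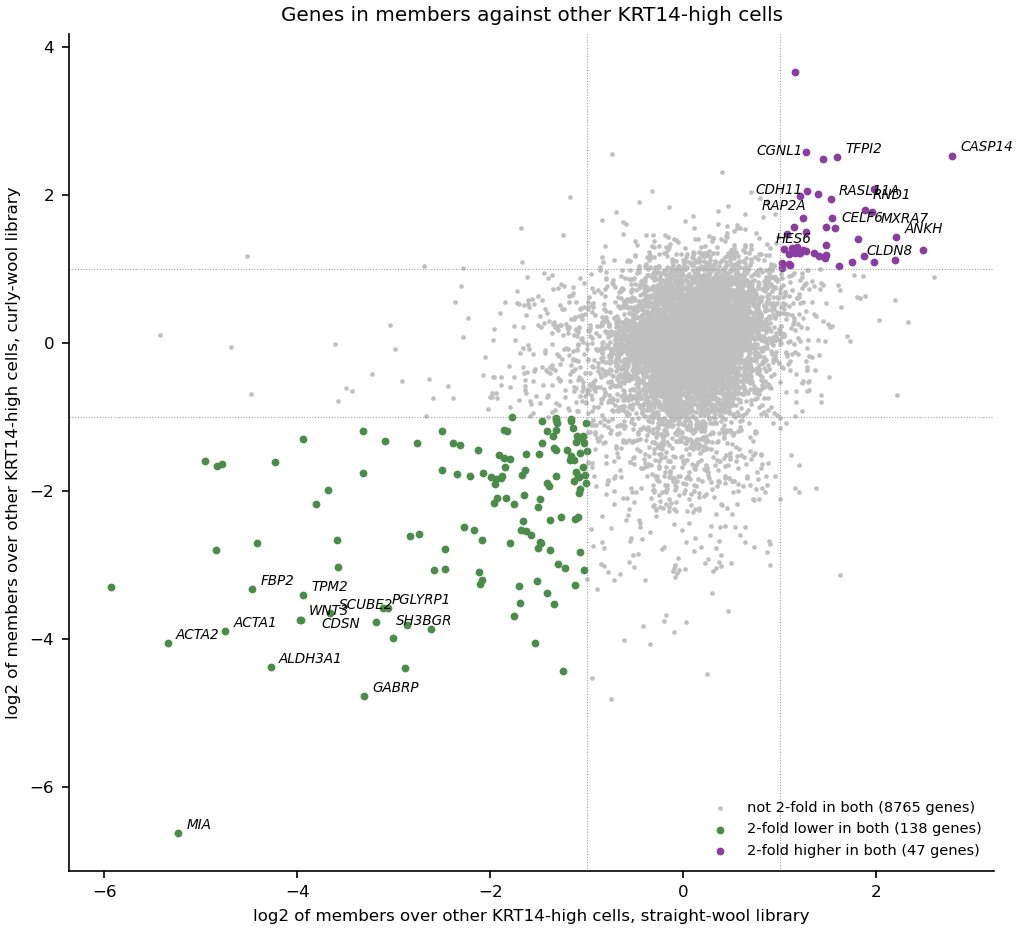
Log2 ratio of members over other KRT14-high cells in the straight (x axis) and curly (y axis) library, 1 point per gene outside the rule with at least 100 UMIs in each library. Purple and green points are the 47 genes at least 2-fold higher and the 138 at least 2-fold lower in both, with the 12 named of each in italics, and dotted lines mark 2-fold. Where a sum was 0 UMIs, 0.5 UMI was added to both sums.

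The lower genes followed in part from the clauses of the rule, which leave contractile, LGR5 and DLK2 cells among the other KRT14-high cells. ACTA2, TPM2, MYH11 and CNN1, which encode contractile filament proteins of myoepithelial and muscle cells, had log2 ratios of -5.34 to -3.58 in straight and -4.05 to -2.70 in curly members. Against cells that met every clause but the count of the 6 genes, the curly ratios of ACTA2 and TPM2 turned to 0.59 and 0.93. For each gene 1 curly member held most of the UMIs, 71.8% of ACTA2 and 55% of TPM2, and without the top cell of each gene the ratios were -1.20 (-2.21 to -0.35) and -0.19 (-0.80 to 0.36). MIA was at 1 UMI in straight and at 0 in curly members, at least 16.3-fold lower in curly than the 66.5 CPM of the other KRT14-high cells, with the floor of 3 counts over the set. ACTA1, a muscle actin, had 0 UMIs in both, and was at least 4.46-fold lower in straight and at least 2.48-fold lower in curly.

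Other lower genes did not belong to the contractile group. ALDH3A1, a detoxifying aldehyde dehydrogenase, had 2 UMIs in straight and 0 in curly members, against 24.8 and 14.1 CPM in the other KRT14-high cells, which gives at least 3.46-fold lower in curly. WNT3, a canonical WNT ligand of skin epithelium, had 3 UMIs and 1 UMI in members against 30.1 and 18.1 CPM, with log2 ratios of -3.97 (-6.25 to -2.42) and -3.74 (-9.04 to -1.25). SCUBE2, which helps release hedgehog ligands, had the same counts of 3 and 1 against 24.2 and 17.1 CPM. CDSN, corneodesmosin of the cornified layer, was at 5.11 and 48.9 CPM against 46.6 and 664.7. FBP2 (LOC101113460), GABRP, PGLYRP1 and SH3BGR (LOC101123341) had at most 1 UMI each in the members of either library. Against the LGR5 set, CDSN in curly members turned to 1.10, and WNT3 in straight members was at 0.48 (-2.64 to 4.06), from 3 against 2 UMIs.

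Gene lists of pathways showed few members past 2-fold in both libraries. Among WNT ligands, receptors and modulators, 24 of 37 genes were measured, 0 were 2-fold higher and 3 were 2-fold lower, namely WNT3, WNT16 and AXIN2, beside 0.525% and 1.54% of all genes. WNT16 had 0 UMIs in curly members, which gives only at least 1.53-fold lower there, so its 2-fold call rests on the 0.5 UMI added. AXIN2 had 4 UMIs in straight members and 1 in curly ones. The median log2 ratio of the 24 measured WNT genes was -0.08 in straight and -0.26 in curly. SFRP1, a secreted WNT inhibitor, was at 1.29 (1.17 to 1.40) in straight and at -0.07 (-0.31 to 0.16) in curly. Of 16 measured BMP and TGF-beta genes, LTBP1, which stores latent TGF-beta in the matrix, was higher, at 117.6 and 59.8 CPM against 48.8 and 25.3. INHBA, an activin subunit, was lower, at 11.5 and 1.36 CPM against 23.4 and 11.4. Among 9 measured nerve guidance genes, NRP2, a semaphorin co-receptor, was higher with log2 ratios of 1.48 and 1.18, and SEMA3E was at 1.42 and 0.995, the latter just under 2-fold.

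Within the lists of follicle layers, 0 of 10 measured outer root sheath and stem cell genes passed 2-fold in both libraries, with medians of 0.96 in straight and 0.49 in curly. SOX9, the outer root sheath regulator, was at 288.9 and 415.7 CPM against 224.0 and 265.6, with log2 ratios of 0.37 and 0.65. NFATC1, a regulator of follicle stem cells, was at 1.70 (1.24 to 2.13) in straight and 0.09 (-1.38 to 1.24) in curly. The 5 inner root sheath genes had medians of -0.27 and -0.79, and the 3 companion layer genes of -0.76 and -0.08. The 20 measured hemidesmosome and basement membrane genes, the 11 of the Hippo pathway, the 13 of S phase and the 14 of mitosis had 0 genes past 2-fold in both libraries. All 5 measured contractile genes were lower, beside 1.54% of all genes, which the ACTG2 clause favours. Of 10 retinoid and fatty acid binding genes 3 were lower, beside the same 1.54%, namely RBP4, STRA6 and ALDH1A1, from 6 UMIs or fewer each in the members of a library.

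Several groups had 0 of their measured genes past 2-fold in both libraries while their medians were off 0. Immediate early genes had medians of 0.31 in straight and 0.86 in curly over 18 genes. ATF3, a stress-induced factor of the AP-1 family, was at 1435 and 1432 CPM in members against 773.7 and 772.3, with a log2 ratio of 0.89 in each library. FOS was at 0.39 and 0.73. The 76 ribosomal protein genes measured had medians of -0.23 and -0.15.

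The 3 neighbouring sets among the KRT14-high cells were set beside the members one at a time. Against 1606 straight and 2309 curly cells that failed only the count of the 6 genes, 73 of 7430 genes (0.983%) were at least 2-fold higher and 83 (1.12%) lower in both libraries. CASP14, TFPI2 and RND1 led again, followed by NTF3, with log2 ratios of 2.04 and 2.04, and by FMOD, a collagen-binding proteoglycan, at 2.03 and 2.14. CXCL14 was at 2.23 and 1.93, and MAP1B, a microtubule-associated protein, at 1.82 and 2.49. CDSN, GABRP and ALDH3A1 led the lower genes.

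Against the LGR5 set (174 and 418 cells), 69 of 2940 genes (2.35%) were higher and 44 (1.5%) lower. CASP14 was at 6.51 and 4.39, SPINK4 at 4.08 and 4.70 and SERPINA1 at 2.53 and 2.91. The CASP14 level in the straight LGR5 set was about at its floor of 2.06 CPM (3 counts over the set), so the size of that ratio is uncertain. KRT10, a suprabasal keratin, was at 2.18 and 3.98, but 5 cells held 77.1% of its UMIs in straight and 61.8% in curly members. Without the 5 straight and 11 curly members highest in KRT10, its level fell from 1028 to 244.0 CPM in straight members. In curly members it fell from 4780 to 571.1 CPM. How far KRT10 differs from the LGR5 set without these cells was not tested. THBS1, the thrombospondin next to THBS2, was lower in members at -2.39 and -2.35, and KRT19, a keratin of bulge and gland cells, at -4.34 and -2.32. Cells with at least 2 of DLK2, CDH13 and FGFBP1 (573 and 269) gave 69 of 3155 genes (2.19%) higher and 40 (1.27%) lower. There MAP1B was at 3.06 and 3.04, KRT6A, a keratin of the companion layer and of activated epidermis, at 2.999 and 2.47, and SEMA3E at 2.69 and 2.13. The KRT6A UMIs came from few cells, 5 of which held 66.8% in straight and 88.2% in curly members. KRT17 was at 2.11 and 2.11, and SFRP1 at 3.66 and 2.08. SCUBE2 and WNT3 were lower, with log2 ratios of -5.56 to -4.82 from 3 UMIs and 1 UMI each in members, and ALDH3A1 had 2 UMIs and 0 in members against 46.3 and 40.7 CPM.

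Genes past 2-fold against each of the 3 sets in both libraries were chosen after their values were seen. They were 6 of 2705 genes measured in all of these comparisons (0.222%). CASP14 had log2 ratios of 2.05 to 6.51, the highest against the near-floor level of the straight LGR5 set, and TFPI2 of 1.38 to 3.19. RCAN1, a calcineurin inhibitor, had ratios of 1.24 to 2.56, LTBP1 of 1.01 to 1.78, TCF12, a bHLH factor, of 1.10 to 1.64, and LAP3, an aminopeptidase, of 1.04 to 1.52. On the lower side 1 gene of 2705 did so (0.037%), ACAA2, an enzyme of mitochondrial fatty acid oxidation, with log2 ratios of -2.33 to -1.39.

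The members did not form a group of their own when KRT14-high cells were clustered without the 14 rule genes. With 15 clusters a library, straight members were spread over 10 and curly members over 11. The cluster with most straight members held 53 of 144 (36.8%) and was 14.1% members among its 375 cells, with SFRP1, GEM, BGN and CXCL14 as its leading genes. A cluster led by LY6D and SPINK4 held another 34 (23.6%). In the curly library, the leading cluster held 30 of 66 members (45.5%), which were 7.69% of its 390 cells, and was led by CXCL8, TFPI2, CD74 and CCL20. The next held 15 (22.7%) and was led by ACKR4 and SCUBE2. Over all clustered cells, members were 5.40% in straight and 1.94% in curly, so both leading clusters held more members than that share. The 3 clusters with most members held 72.2% of them in straight and 80.3% in curly. Some of these clusters were large and poor in members. The second straight cluster was 3.34% members among its 1019 cells, and the third curly cluster 1.26% among its 636. Both lay below the share over all clustered cells. The clusters were given no cell type names.

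Between curly and straight members, 68 of 2509 genes with at least 100 UMIs were at least 2-fold higher in curly (2.71%) and 121 lower (4.82%). For the same genes in the other KRT14-high cells, 59 were higher (2.35%) and 51 lower (2.03%). Of the 68, 42 were also 2-fold higher in the other cells, 61.8% of the calls in members and 71.2% of those in the others. Of the 121, 27 were shared, which was 22.3% and 52.9%. The median log2 ratio over the 2509 genes was -0.17 in members and -0.13 in the others. Scaled by the median ratio instead, 86 genes were higher and 66 lower in curly members. Straight members held 1564797 UMIs and curly members 736179, so a minimum summed over both let in genes high in straight at lower CPM. At a minimum of 300 UMIs, 34 genes were higher and 34 lower in curly members, and at 3000 UMIs a cell 20 and 12. The excess of lower genes thus depended on these settings. Each of these values compares 1 pool with 1 pool.

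Interferon-induced genes led the higher side, and they were also higher in curly among the other KRT14-high cells. IFI6 stood at 30.7 CPM (22.6 to 40.7) in straight and 8472 CPM (8263 to 8685) in curly members, and at 10.7 and 7295 CPM in the other KRT14-high cells. It had a UMI in 23 of 144 straight and 65 of 66 curly members, and the curly cells ran from 0 over a median of 88.9 to 363.3 UMIs per 10000. BST-2A, MX1, ISG15 and LY6E, further genes that interferon induces, had log2 ratios of curly over straight of 8.56, 5.66, 4.87 and 4.34 in members. MX2 had 0 UMIs in straight and 30 in curly members, at least 21.3-fold higher. All 4 measured interferon genes of the list fixed here (ISG15, MX1, IFI6 and IRF7) were past 2-fold, beside 2.71% of all genes, with a median of 5.27 in members and 5.21 in the others.

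The factors that define the members tended to be lower in curly members, as a description of genes the rule used. The log2 ratio of curly over straight members was -1.56 (-2.32 to -0.87) for SFTPC and -0.88 (-1.28 to -0.49) for PTHLH. BDNF was at -0.71 (-1.08 to -0.35) and THBS2 at -0.67 (-1.14 to -0.23). PTN was at -0.17 (-0.35 to 0.00) and RASSF6 at -0.28 (-0.78 to 0.19). In the other KRT14-high cells, PTHLH, SFTPC, BDNF and THBS2 were also lower in curly, at -1.52, -1.18, -0.77 and -0.77, while PTN was at 0.79 and RASSF6 at 0.19.

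Outside the rule, CXCL14 was at a log2 ratio of -1.67 (-1.74 to -1.59) in members and -0.71 in the others, and NTF3 at -1.22 (-2.04 to -0.48) and 0.03. KRT17 was nearly level, at -0.04 in members. TGFBI, a matrix protein induced by TGF-beta, led the lower genes with 107 UMIs in 57 straight and 3 UMIs in 2 curly members, a log2 ratio of -4.07 (-6.37 to -2.48) against -2.04 in the others. CRABP1, a retinoic acid binding protein, was at 61.3 and 6.79 CPM in members and at 47.6 and 52.7 CPM in the others, so its log2 ratio was -3.18 in members and 0.15 in the others. LOXL1, a lysyl oxidase of elastic fibres, was at -2.15 and -0.20, and WIF1, a secreted WNT inhibitor, at -2.66 and -1.996. SOD2, S100A4, KCTD10, C1QTNF1, PTGES3 and HIGD1A had log2 ratios of -2.31 to -1.81 in members and of -1.78 to -0.90 in the others. No test compared the ratios of members with those of the other cells, since each rests on the same 2 libraries.

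**Figure D5:**
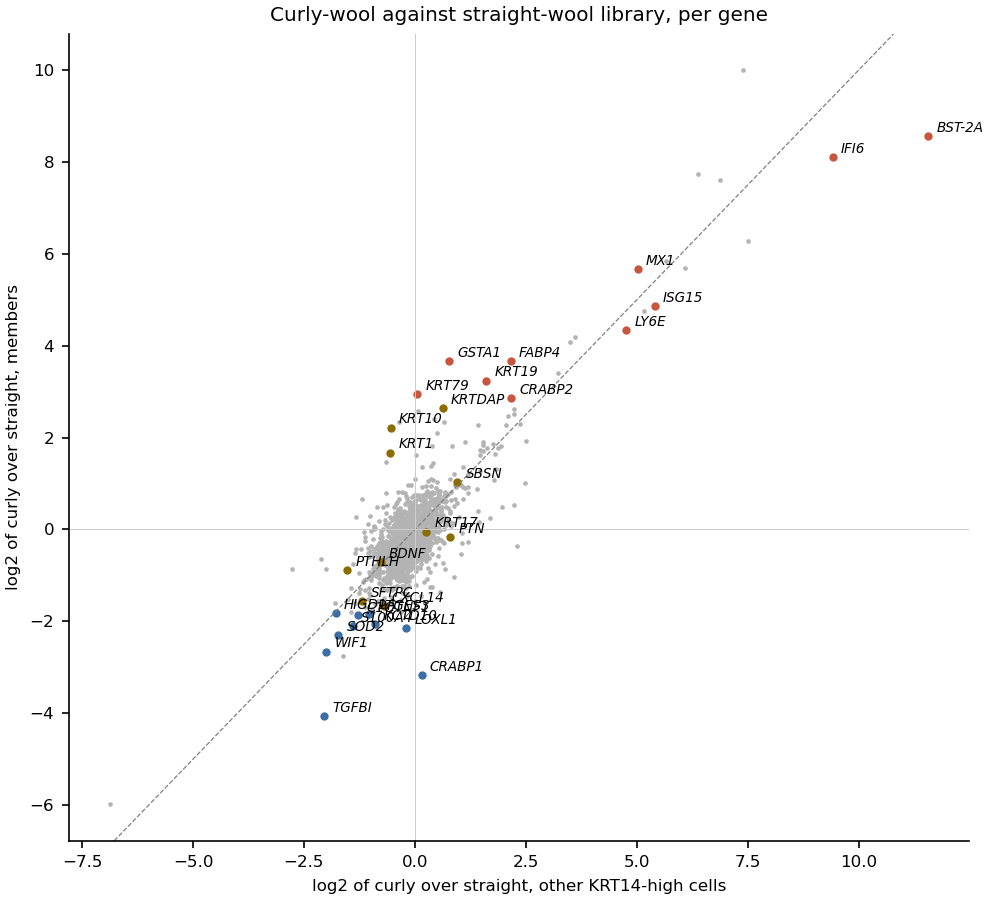
Log2 ratio of the curly over the straight library in members (y axis) and in other KRT14-high cells (x axis), 1 point per gene with at least 100 UMIs in members. Red and blue points are genes named for being higher or lower in curly members, ochre points are other genes in the text, and the dashed line marks equal ratios. IFI6, MX1, ISG15 and LY6E lie high on both axes, while KRT10, KRT1, KRT79 and GSTA1 lie above it and CRABP1 and LOXL1 below it.

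A few members had high levels of suprabasal genes, and these cells were a larger share of the curly members. KRT10 ran from 0 over a median of 1.75 to 339.0 UMIs per 10000 in straight members, and from 0 over 3.31 to 344.8 in curly members. At least 50 UMIs of KRT10 per 10000 were found in 5 straight members (3.47%, 1.14 to 7.92%) and in 11 curly members (16.7%, 8.62 to 27.9%). All 16 of these cells had KRT17 UMIs and PTN UMIs, and PTHLH had a UMI in 2 of the 5 and 3 of the 11. In sums, KRT10 came to 1028 CPM over the straight and 4780 CPM over the curly members, a log2 ratio of 2.22 against -0.54 in the others. All 4 measured suprabasal genes (KRT1, KRT10, KRTDAP and SBSN) were past 2-fold higher in curly members, beside 2.71% of all genes, with a median of 1.95, against 0.04 in the others.

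Without the 16 cells, KRT1 had a log2 ratio of 0.03 (-0.23 to 0.29) between curly and straight members, in place of 1.67. KRT10 itself stayed at 1.23, KRTDAP, a secreted protein of differentiating keratinocytes, at 1.71 in place of 2.64, and SBSN at 0.79 in place of 1.04. KRT79, a keratin of the upper follicle, was at 1.58 in place of 2.95, and GSTA1, a glutathione transferase, at 3.01 in place of 3.66. PTHLH moved from -0.88 to -0.54 and CXCL14 from -1.67 to -1.34. FABP4, KRT19 and CRABP2 were at 3.67, 3.24 and 2.86 with all members and came from few cells, with UMIs of KRT19 in 7 and of FABP4 in 11 curly members. With at least 4 of the 6 rule genes asked for, FABP4 and KRT19 turned to -0.78 and -1.36.

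Markers of endothelial cells, leukocytes and Merkel cells had few UMIs in the members. Of 7 endothelial genes, 5 had 0 UMIs in straight and 5 in curly members, among them KDR, CDH5, VWF and EMCN in both, and the summed level was 3.20 CPM in straight and 2.72 CPM in curly members against 12.5 and 7.44 CPM in the other KRT14-high cells. Single members reached at most 157.1 and 103.8 CPM. Leukocyte genes summed to 11.5 and 1.36 CPM, with TYROBP and KIT at 0 in both, and Merkel cell genes to 0.639 and 1.36 CPM. Melanocyte genes came to 21.1 and 4.08 CPM against 13.98 and 8.24 in the other KRT14-high cells, and pericyte genes to 12.8 and 38.0 CPM against 27.2 and 29.1. Hair shaft genes came to 273.5 and 135.8 CPM against 111.0 and 200.4, and 1 straight member held 60.3% of their UMIs there. The 8 dermal genes came to 253.7 CPM in straight members, where 0 of them were at 0 UMIs, and to 40.8 CPM in curly members, where LUM was at 0. At least 3 of them were found in 9 straight members (6.25%, 2.90 to 11.5%) and in 0 curly members (exact upper bound 5.44%). The other KRT14-high cells were at 167.5 and 138.5 CPM, so the members lay above them in straight and below them in curly. The dermal genes were thus higher in straight than in curly members, as were TGFBI, LOXL1, CRABP1 and WIF1, the last of which is on the dermal list, and the part of dermal RNA in these differences was not tested.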

How the data were processed

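Single-cell RNA-seq was made from 1 pooled library each of straight and curly wool lambs. The labels name Cell Ranger 3.0.2, the methods another version, and the build in the study's methods is Oar_rambouillet_v1.0. The authors deposited natural log values, ln(1 + UMIs of a gene per 10000 UMIs of the cell), for 18161 genes in 14037 cells. UMI counts were calculated back from the value of 1 UMI in each cell. All of 28552149 values above 0 (100%) came out whole within 0.01, the largest deviation being 0.0066612.

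UMIs were summed over the cells of a set and library and divided by the total (CPM). Intervals were exact Poisson for CPM, exact Clopper-Pearson for shares and exact binomial for log2 ratios, all at 95%. With 1 library per wool type no p-value was computed, and genes were counted at a fold of 2 with at least 100 UMIs. Named were the rule genes, KRT5, KRT14, KRT15 and KRT17, the 12 highest and 12 lowest genes of members over other KRT14-high cells in both libraries, the 10 highest and 10 lowest of curly over straight members, and examples from gene lists. Genes named against the 3 neighbouring sets were chosen after these comparisons were seen, as were ATF3 and MX2. Members and lists were chosen with earlier results of these data known.

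Symbols of LOC entries came from RefSeq (assembly ARS-UI_Ramb_v3.0) by gene number. Of 3912 such entries, 2582 were found and 331 had a symbol. No doublets were removed. Scrublet marked 58 straight (0.899%) and 2 curly cells (0.0264%), so it did not work in the curly library, and the 6% of cells with the highest scores, which held 14 straight and 6 curly members, were left out as an alternative. Computations used Python 3.11.15, NumPy 2.4.6, SciPy 1.17.1, scanpy 1.11.5, scikit-learn 1.9.0 and matplotlib 3.10.9. The 2-fold rule for members over other KRT14-high cells was tested on simulated sums that held counting error only. It called 29 of 8720 unchanged genes and recovered 80% to 100% of the changed genes, depending on the fold. Ratios with a set at 0 UMIs were ranked and counted after adding 0.5 UMI to both sums. Alternatives changed the rule, the depth, the count minimum, the scaling and the comparison set.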

Additional observations from a re-analysis of the deposited data

Results flagged for a closer look

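Of 308 genes looked at, 6 lay on opposite sides of the other KRT14-high cells in the straight and curly library, with intervals that did not reach 0 in either. The difference between the libraries was not tested. KRT10 had a log2 ratio of members over other KRT14-high cells of -1.67 in straight and 1.09 in curly, and KRT1 of -1.70 and 0.52. In the other direction, COL1A1 was at 0.72 in straight and -2.11 in curly, from 81 and 5 UMIs in members. RSPO3, a secreted WNT agonist, was at 0.90 and -2.72, from 41 UMIs and 1 UMI. KRT35, a hair shaft keratin, was at 1.28 and -0.65, from 337 and 77 UMIs, and 1 straight member held 62.9% of the 337. Without that cell the straight ratio was -0.13 (-0.40 to 0.13), so the opposite direction of KRT35 rested on 1 cell. IL1A, an epithelial cytokine, was at -0.83 and 1.10, from 12 and 19 UMIs, and without the curly member with most of it the curly ratio was 0.34 (-0.68 to 1.20). Leaving out the top cell of each library kept the directions of KRT10, KRT1 and COL1A1. Without the 5 straight and 11 curly members highest in KRT10, curly members had 571.1 CPM of KRT10 and 310.3 CPM of KRT1. The other KRT14-high curly cells had 2247 and 1274 CPM. Only the members were trimmed by KRT10 here, so these levels are not like for like. How far the higher curly levels of KRT10 and KRT1 in members rested on those 11 cells was not tested.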

How the results depend on the processing

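No paired analysis was possible because each wool type has 1 library. For the same reason the values below carry no test, and the causes of their shifts were not tested. Of 92 summary values recomputed under 20 settings, 50 stayed close to the reported ones, and of 1027 values of named genes 825 did, 184 moved and 18 changed sign. The share of members stood at 4.51% straight and 3.15% curly with at least 2 of the 6 genes, at 1.15% and 0.330% with at least 4, and at 3.18% and 1.25% among cells that passed a higher minimum of genes a cell. In the straight library it was 2.73% and 1.72% with KRT14 limits of 10 and 40, and 1.39% at 3000 UMIs a cell.

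Counts of genes 2-fold higher and lower in members, then higher and lower in curly members, were 8, 85, 123 and 212 with at least 2 of the 6 genes, 102, 266, 43 and 52 with at least 4, 133, 336, 256 and 743 at a minimum of 20 UMIs, and 21, 47, 34 and 34 at 300. At 3000 UMIs a cell, 20 genes were higher and 12 lower in curly members. Scaling by the median ratio, a shift of -0.17, gave 86 higher and 66 lower in curly members in place of 68 and 121. Higher and lower in members were 242 and 743 against all other cells, and 73 and 83 against cells that failed only the count of the 6, a set added after the data were seen. Lower genes numbered 44 against the LGR5 set, 40 against the DLK2 set and 321 with means of per-cell values. The lowest log2 ratio of a rule gene left out was 1.43 (0.07 to 2.53) straight and 0.79 (-4.55 to 3.36) curly at 3000 UMIs, and 1.91 and 0.75 with at least 2 of the other 5. The cluster with most members held 46.5% of straight members with 10 clusters, and 25.7% straight and 27.3% curly with 25.

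The fitted ratio changed sign for FABP4 (-0.78) and KRT19 (-1.36) of curly over straight members with at least 4 of the 6 genes, and at 3000 UMIs for KRT19 (-2.72) and for RASL11A of curly members over others (-0.75). Against the LGR5 set, WNT3 straight was at 0.48, TPM2 curly at 0.48, CDSN curly at 1.10, and SH3BGR at 1.48 straight and 0.52 curly. In the curly library, the DLK2 set gave 0.61 for ACTA2, 0.33 for ACTA1, 1.33 for TPM2, 0.71 for CDSN and 0.91 for SH3BGR, and cells that failed only the count of the 6 gave 0.59 for ACTA2, 0.44 for ACTA1, 0.93 for TPM2 and 0.28 for SH3BGR. ACTA1 had 0 UMIs in members, so its values come from 0.5 UMI added to the sum and no direction can be read from them, and SH3BGR had 1 UMI. Without the member with most UMIs of the gene, an alternative added after the data were seen, ACTA2 and TPM2 curly were at -1.20 and -0.19 against the cells that failed only the count of the 6.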

Other observations

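Members with at least 50 UMIs of KRT10 per 10000 had little CXCL14. Its median in these cells was 0.603 UMIs per 10000 in the 5 straight and 1.52 in the 11 curly ones, against 56.2 and 16.6 over all members. KRT17 had medians of 102.7 and 115.3 in the same cells.

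Of 14 mitosis genes, at least 3 had a UMI in 17 straight (11.8%, 7.03 to 18.2%) and 7 curly members (10.6%, 4.37 to 20.6%), against 11.1% and 5.32% of the other KRT14-high cells, which were shallower.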
